A study of Mus musculus with 9 samples.

Results

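The genes that encode the proteins of the cytosolic ribosome were followed in resting regulatory T cells. All rows of the count table whose symbol begins with Rpl or Rps and a digit were taken, together with Rplp0, Rplp1, Rplp2 and Rpsa. Symbols of pseudogenes (-ps), the S6 kinases (Rps6k) and Rps19bp1, which are not ribosomal proteins, were left out. This gave 85 of 34092 gene rows, 52 named for the large and 33 for the small subunit. A total of 8 of the 85 were set apart as paralogues or near copies of another member (Rpl3l, Rpl7l1, Rpl10l, Rpl22l1, Rpl36al, Rpl39l, Rps27l and Rps4y2), and the other 77 are called core genes.

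The RNA came from mouse T cells sorted directly after isolation and not stimulated. In the WT group the Foxp3 gene carries a green fluorescent reporter (genotype Foxp3gfp), and in the CNS2KO group it carries the reporter and lacks CNS2, a conserved noncoding element inside Foxp3 (genotype Foxp3deltaCNS2-gfp). Both groups therefore carry the reporter. The labels give neither age, sex nor the sort gate, and do not say that each number stands for an animal of its own. The p-values below therefore measure spread among these samples alone, and that spread may be technical. The comparison used 5 WT libraries (398, 402, 405, 1032 and 1037) and 2 CNS2KO libraries (399 and 408). Columns numbered 407 were not used, because the labels give that number to a sample of each genotype.

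A ribosome has a small subunit, which reads the messenger RNA, and a large subunit, which joins the amino acids. Each subunit holds ribosomal RNA and a fixed set of proteins, nearly all present as a single copy per ribosome, except for the acidic stalk proteins P1 and P2, which sit in pairs on P0 and recruit the translation factors. Transcripts of these proteins are among the most abundant in dividing cells. Most begin with a C followed by a run of pyrimidines, the terminal oligopyrimidine (TOP) motif, through which the kinase mTOR controls their translation. Quiescent lymphocytes hold fewer ribosomes than activated ones.

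Promoter sequences from RefSeq (build GRCm38.p6, 250 bases before to 50 after each annotated start) were found for 64 of the 85 genes, 1 of them through an older symbol. In 13 of the 64 (20.3%) at least 1 annotated start was a C followed directly by at least 4 C or T. The same held for 3.01% of all 27025 genes with a promoter. The start sites below, each with 30 bases before and 20 after the start, belong to genes whose values are described further on, and capitals mark the pyrimidine run that begins at the start.
Rps6, chr4:86857348-86857397, minus strand: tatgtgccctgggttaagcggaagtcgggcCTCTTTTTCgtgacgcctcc
Rps27, chr3:90213629-90213678, minus strand: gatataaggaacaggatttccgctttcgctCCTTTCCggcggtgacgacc
Rpl38, chr11:114668550-114668599, plus strand: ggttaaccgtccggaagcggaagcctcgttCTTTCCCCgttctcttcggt
Rpl35, chr2:39005112-39005161, minus strand: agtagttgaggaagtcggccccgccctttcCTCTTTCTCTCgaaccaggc
Rplp2, chr7:141447621-141447670, plus strand: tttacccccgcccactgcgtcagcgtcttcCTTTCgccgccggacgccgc
Rpl14, chr9:120571487-120571536, plus strand: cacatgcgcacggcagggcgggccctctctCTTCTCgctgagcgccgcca

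A run of 8 pyrimidines within 20 bases of the start, searched for after the sequences were seen, was found in 30 of the 64 genes (46.9%), against 18.4% of all genes with a promoter. The letters CCGGAAG, which hold the core bound by Ets family factors, occurred on either strand of the window in 26 of 64 (40.6%), against 9.93% of all genes. GGGCGG, bound by Sp1, occurred in 62.5% against 38.2%, and AAGATGG, part of the motif of Yy1, in 15.6% against 7.28%. TATAAA occurred in 10.9% against 15.7%. These are matches of letters and not shown sites. The 13 genes with the run at the start had a median log2 fold change (CNS2KO against WT) of 0.31, and the 49 other tested genes with a promoter 0.30. Some of the 49, such as Rpl7a and Rpl27a, had the run of 8 pyrimidines near the start. The split therefore need not separate genes with a TOP motif from those without. With CCGGAAG the median was 0.33 (26 genes) and without it 0.29 (36 genes).

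Ribosomal protein transcripts took a substantial part of each library. Reads on genes ranged from 16557424 to 21836578 per library, and the 85 genes held 6.97 ± 0.789% of them in WT (SD, n = 5) and 8.005 ± 1.62% in CNS2KO (SD, n = 2). The share was 6.96% in WT 398, 7.77% in WT 402, 6.49% in WT 405, 5.93% in WT 1032 and 7.71% in WT 1037, and 9.15% in CNS2KO 399 and 6.86% in CNS2KO 408. CNS2KO 399 stood above every WT library and CNS2KO 408 inside the WT range. Large subunit genes held 3.91 ± 0.416% in WT and small subunit genes 3.06 ± 0.374%. Both CNS2KO libraries were deeper (21427618 reads or more) than every WT library (19154642 reads or fewer), so depth and genotype cannot be told apart. In bulk RNA, fewer cells of a type and less RNA per cell also cannot be told apart.

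Levels between genes were compared per length, as CPM (gene counts set to a common library size by the TMM method) per kilobase of coding sequence. Coding lengths came from GENCODE M21 and were found for 84 of the 85 genes. They ran from 75 nt for Rpl41 to 1257 nt for Rpl4, with a median of 454.5 nt. Among core genes the WT mean per coding kilobase ran from 250.2 to 5489, with a median of 1269. Of the 77, 74 stood at 100 CPM or more in every library, all but Rpl28, Rpl38 and Rps28. The highest were the large subunit gene Rpl32 (5489 ± 1052 CPM per coding kilobase, SD, n = 5) and the small subunit gene Rps27 (5025 ± 798). The difference between the 2 was smaller than either SD. Rps3 (3807 ± 665) was also among the highest.

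The lowest core genes per coding kilobase were Rps2 (250.2 ± 41.9), Rpl28 (315 ± 84.5) and Rpl29 (327 ± 70.4), picked out after their values were seen. Their SDs also overlapped. The ranking depended on the length used. Per kilobase of the whole transcript the WT means were 201 for Rps2, 117 for Rpl28 and 221 for Rpl29. By that length Rpl31, at 196, stood below Rps2 and Rpl29. Many ribosomal protein genes have processed pseudogene copies, and reads that aligned to more than 1 place were kept in a row of their own in the table, at 14.7 to 19.7% of all reads of a library. The 172 rows of ribosomal pseudogenes held 0.345 ± 0.0798% of gene reads in WT and 0.342 ± 0.131% in CNS2KO. How such reads set the level of any single gene was not tested, and levels of genes with near-identical copies are uncertain.

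**Figure D1:**
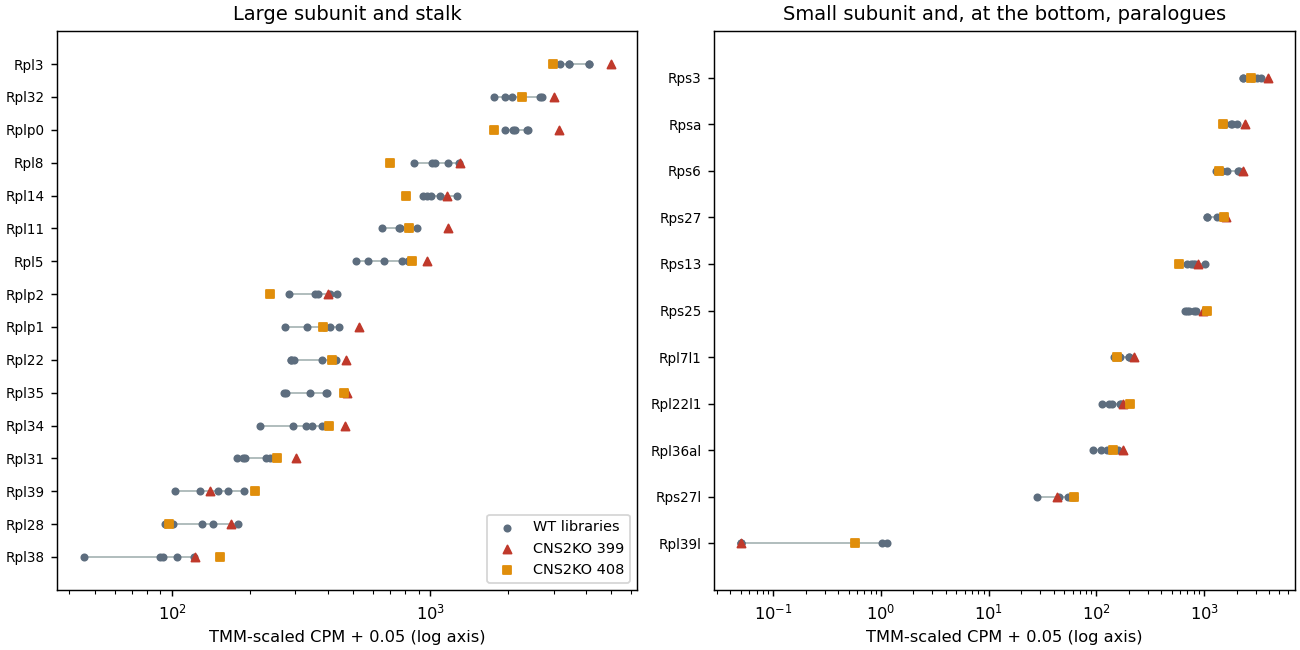
TMM-scaled CPM + 0.05 of the ribosomal protein genes described by name on a log axis, 1 row per gene, sorted by WT mean within a panel; grey points are the 5 WT libraries joined by a line, the red triangle is CNS2KO 399 and the orange square CNS2KO 408. Rpl10l and Rpl3l, read in a single library each, are not drawn. Red triangles lie at the right end of most rows, and orange squares lie on both sides of the WT points.

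The paralogues differed widely in level. Rpl7l1 (173 ± 26.2 CPM in WT), Rpl22l1 (144 ± 24.1), Rpl36al (124 ± 24.6) and Rps27l (49.5 ± 13.4) stood at 28.3 CPM or more in every library. The other 4 were lower. Rpl10l, a form of Rpl10 known from testis, had 3 reads in WT 402 and 0 elsewhere, and Rpl3l, the form of Rpl3 used in heart and skeletal muscle, had 12 reads in CNS2KO 399 and 0 elsewhere; these were the 2 genes too low to test. Rpl39l had 20, 19 and 11 reads in WT 398, WT 405 and CNS2KO 408 and 0 in the other libraries. Rps4y2 had 24 to 83 reads in every library (1.15 to 4.85 CPM). A count of 0 allows up to 0.142 to 0.182 CPM (3 counts), counting error only.

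The comparison of the genotypes asked whether transcript levels in resting cells differ without CNS2. No ribosomal protein gene passed the test. Among the 83 genes tested, edgeR's quasi-likelihood test with Benjamini-Hochberg adjustment over all 14424 genes called 0 at an FDR of 0.05 (background 0% of all genes), with a smallest adjusted p of 0.9999. At an unadjusted p under 0.05 there were 11 higher and 0 lower in CNS2KO. All tested genes gave 1.54% higher and 0.964% lower, and the genes at 100 CPM or more 3.37% higher and 0.784% lower. DESeq2 also called 0 of the 83, with 15 at an unadjusted p under 0.05, and limma-voom 0, with 16. Of all 14424 tested genes, 496 in DESeq2 and 614 in limma-voom had an unadjusted p under 0.05.

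The signs of the differences were uneven. A positive log2 fold change was found in 76 of the 83 genes, against 47.4% of all tested genes and 57% of the 2168 genes at 100 CPM or more. The median was 0.30 over the 83 genes, -0.03 over all tested genes and 0.04 over those at 100 CPM or more. By subunit it was 0.30 for 43 large subunit core genes without the stalk and 0.29 for 31 small subunit core genes. Both CNS2KO libraries lay above every WT library in 14 of the 83 genes (3.76% of all tested genes and 6.23% of those at 100 CPM or more), and below every WT library in 0 (3% and 3.37%). The 14 were 8 large subunit genes, 5 small subunit genes and the paralogue Rpl22l1. Among them, named after their values were seen, were Rpl5, Rpl13a, Rpl23a, Rpl31, Rpl34, Rpl35, Rpl38, Rps3a, Rps7, Rps25 and Rps27.

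The number of positive genes and their median differed with the CNS2KO library left out. Without CNS2KO 399, 55 of 83 were positive with a median of 0.09, and without CNS2KO 408 80 of 83 were positive with a median of 0.45. With CNS2KO 408 alone, genes named after their values were seen went both ways. The log2 fold change was 0.76 for Rpl38, 0.53 for Rps25 and 0.46 for Rpl35. It was -0.62 for Rplp2, -0.61 for Rpl8 and -0.49 for Rps13. The median of all tested genes was -0.12 without CNS2KO 408 and -0.04 without CNS2KO 399. In these fits a single CNS2KO library is compared, and it is assumed to vary like the WT libraries. Without CNS2KO 399 the share of gene reads differed by -0.11 percentage points (CNS2KO minus WT), with it by 1.03. In edgeR's test with all 7 libraries, 11 of the 83 genes and 361 of all 14424 tested genes had an unadjusted p under 0.05. Leaving out a WT library gave 1 (WT 405), 2 (WT 1032), 6 (WT 398) or 16 (WT 402 or WT 1037) ribosomal protein genes. Over all tested genes these fits gave 250 of 14154 (WT 405), 315 of 14259 (WT 1032) and 298 of 14203 (WT 398). Without WT 402 there were 427 of 14254, and without WT 1037 384 of 14183.

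Library by library, the core genes shared an offset in most libraries. On the scale of log2(CPM + 0.5) minus the WT mean of each gene, the median of the 77 core genes was 0.01 in WT 398, 0.18 in WT 402, -0.12 in WT 405, -0.26 in WT 1032 and 0.23 in WT 1037. In WT 1037 75 of the 77 stood above their WT mean, and in WT 1032 1 did. CNS2KO 399 had a median of 0.48, with 76 of 77 above the WT mean, and CNS2KO 408 had 0.10, with 53 of 77. The medians of all genes at 100 CPM or more lay between -0.05 and 0.06 in the 7 libraries. CNS2KO 399 held the highest value of the 7 libraries for 59 of the 77 core genes, against 23.1% of genes at 100 CPM or more, and WT 1032 the lowest for 52, against 16.7%.

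**Figure D2:**
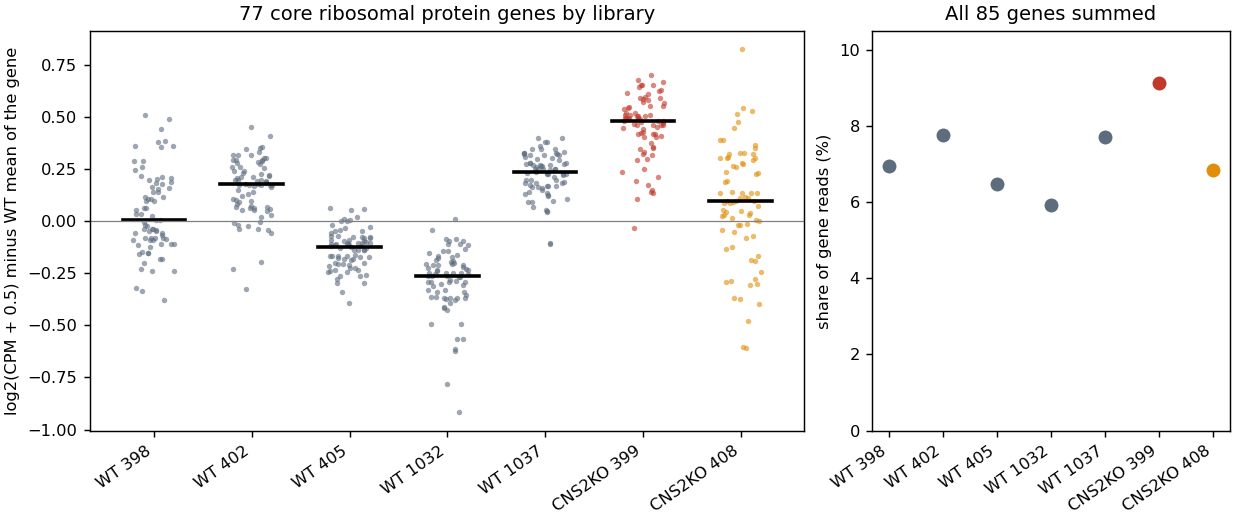
Left, log2(CPM + 0.5) minus the WT mean of the gene for 77 core genes (points) in each library, with the median as a black bar; right, share of gene reads on all 85 genes per library. The medians run from -0.26 in WT 1032 to 0.48 in CNS2KO 399, and CNS2KO 408, at 0.10, has the widest scatter.

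Part of the spread among WT libraries was common to the core genes. The SD of a core gene over the 5 WT libraries had a median of 0.24 on the log2 scale, against 0.21 for the 2088 other genes at 100 CPM or more. After the median of the core genes was taken off each library, the median SD of the core genes was 0.13. It was then smallest for Rpl8 (0.05), a core protein of the large subunit near the site of peptide bond formation. The largest was that of Rpl38 (0.42), a small protein of the large subunit. No such step was taken for the other genes, so whether a common part is particular to the core genes was not tested.

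Stalk genes are given first. In each sentence of values the WT libraries stand in the order 398, 402, 405, 1032 and 1037, and the CNS2KO libraries in the order 399 and 408. Rplp0, the base of the stalk, stood at 2363, 2123, 2096, 1946 and 2396 CPM in WT and at 3158 and 1759 CPM in CNS2KO. The CNS2KO pair thus lay on either side of the WT range, 399 above and 408 below, and the log2 fold change was 0.17 (SE 0.19). Without CNS2KO 399 it was -0.31. Rplp1, which encodes the stalk protein P1, stood at 408, 444, 332, 273 and 387 CPM in WT and at 531 and 382 CPM in CNS2KO (log2 fold change 0.31, SE 0.21). Only CNS2KO 399 lay outside the WT values.

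Rplp2, which encodes P2, the partner of P1, had the lowest log2 fold change among members of 20 CPM or more. Its values were 408, 356, 366, 283 and 435 CPM in WT and 403 and 240 CPM in CNS2KO. CNS2KO 408 lay below all WT libraries and CNS2KO 399 among them, and the fitted difference was -0.20 on the log2 scale (SE 0.22, 95% interval -0.69 to 0.29). As a percent of Rplp1 CPM, Rplp2 stood at 100.04, 80.2, 110.2, 103.7 and 112.3% in WT and at 75.9 and 62.8% in CNS2KO. Both CNS2KO libraries had a lower ratio than any WT library; the ratio was chosen after its values were seen and was not tested.

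Among small subunit genes, Rpsa, which encodes a protein of the messenger exit side that is also known as a laminin receptor precursor, stood at 1763, 1821, 1562, 1485 and 2025 CPM in WT and at 2397 and 1510 CPM in CNS2KO. CNS2KO 399 was above the WT range and CNS2KO 408 near its lower end (log2 fold change 0.17, SE 0.19). Rps6, the substrate of the S6 kinases, stood at 1293, 2058, 1642, 1466 and 2095 CPM in WT and at 2299 and 1377 CPM in CNS2KO, with the same arrangement (log2 fold change 0.10, SE 0.23). Rps25, a protein of the subunit head used by viral internal ribosome entry sites, stood at 730, 799.6, 662, 694 and 843 CPM in WT and at 983 and 1073 CPM in CNS2KO. There both CNS2KO libraries lay above every WT library, with a difference of 0.46 on the log2 scale (SE 0.14, 95% interval 0.15 to 0.78). Its unadjusted p in edgeR's test, 0.0079, was the smallest of the 83 genes.

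Rps13, a small subunit protein that binds its ribosomal RNA, had a negative sign. It stood at 788, 825, 750.1, 699.6 and 1016 CPM in WT and at 872 and 581 CPM in CNS2KO (log2 fold change -0.17, SE 0.19). CNS2KO 408 was the lowest of the 7 libraries, and CNS2KO 399 lay inside the WT range. Rps27, a zinc finger protein of the small subunit, stood at 1310, 1470, 1057, 1055 and 1439 CPM in WT and at 1596 and 1538 CPM in CNS2KO (log2 fold change 0.31, SE 0.17). Both CNS2KO libraries lay above the WT values, by less than the WT SD of 201 CPM from the highest of them. Rps3, which also repairs DNA in the nucleus, stood at 2319, 3385, 2779, 2279.5 and 3114 CPM in WT and at 3933 and 2709 CPM in CNS2KO (log2 fold change 0.26, SE 0.19).

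In the large subunit the largest log2 fold change was that of Rpl38, a gene needed for normal axial patterning in mice. Rpl38 stood at 121, 91.9, 89.8, 45.3 and 104 CPM in WT and at 123 and 153 CPM in CNS2KO. The CNS2KO values were the 2 highest, 399 only just above WT 398, and WT 1032 stood far below the rest. On the log2 scale they differed from WT by 0.61 (SE 0.30, 95% interval -0.04 to 1.26). Rpl35, a protein at the exit of the peptide tunnel, stood at 396, 343, 276, 270.5 and 394 CPM in WT and at 475 and 461 CPM in CNS2KO (0.48, SE 0.19). Rpl34 stood at 331, 349, 293, 219 and 380.0 CPM in WT and at 467 and 405 CPM in CNS2KO (0.47, SE 0.20). Rpl31, also at the tunnel exit, stood at 232, 178, 188, 191 and 239 CPM in WT and at 302 and 255 CPM in CNS2KO (0.44, SE 0.18). In these 3 genes both CNS2KO libraries were above every WT library.

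Rpl5 and Rpl11 bind the 5S ribosomal RNA and, when free of the ribosome, inhibit Mdm2, the ubiquitin ligase of p53. Rpl5 stood at 660.0, 818, 572, 515 and 773 CPM in WT and at 966 and 846 CPM in CNS2KO (log2 fold change 0.44, SE 0.19). Rpl11 stood at 763, 888, 757, 651 and 828 CPM in WT and at 1166 and 826 CPM in CNS2KO (0.36, SE 0.17). Both CNS2KO libraries lay above the WT values for Rpl5, and only CNS2KO 399 for Rpl11. Rpl3, which shapes the peptidyl transferase centre, stood at 3434, 4095, 3432, 3183 and 4098 CPM in WT and at 5001 and 2993 CPM in CNS2KO (0.13, SE 0.19). Here the CNS2KO libraries flanked the WT range.

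The other large subunit genes with low or negative fold changes shared a low value in CNS2KO 408. Rpl8 stood at 1037, 1165, 1014, 863 and 1293 CPM in WT and at 1305 and 700.2 CPM in CNS2KO (log2 fold change -0.10, SE 0.23), and Rpl14 at 966, 1006, 1088, 932 and 1270 CPM in WT and at 1161 and 807 CPM in CNS2KO (-0.10, SE 0.18). CNS2KO 408 was the lowest library for both. Rpl28 stood at 179, 100.4, 131, 93.8 and 144 CPM in WT and at 169 and 97.4 CPM in CNS2KO (0.04, SE 0.28), all inside the WT range. Rpl32, the highest gene per coding kilobase, stood at 2067, 2699, 1936, 1764 and 2649 CPM in WT and at 3020 and 2255 CPM in CNS2KO (0.25, SE 0.19).

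Paralogues were set beside their partners. Rpl22 and Rpl22l1 are paralogous large subunit proteins, and Rpl22 has known roles in T cell development. Rpl22 stood at 289, 381, 295, 288 and 431 CPM in WT and at 473 and 416 CPM in CNS2KO (log2 fold change 0.40, SE 0.19). Rpl22l1 stood at 140, 169, 112, 132 and 166 CPM in WT and at 175 and 206 CPM in CNS2KO (0.41, SE 0.20). For Rpl22l1 both CNS2KO libraries were above the WT values, while for Rpl22 CNS2KO 408 lay inside them. The CPM of Rpl22l1 was 43.0 ± 4.62% of that of Rpl22 in WT, and 37.0 and 49.5% in CNS2KO.

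Rps27l, the paralogue of Rps27 induced by p53, stood at 44.9, 58.7, 54.0, 28.3 and 61.5 CPM in WT and at 43.4 and 62.1 CPM in CNS2KO (log2 fold change 0.09, SE 0.30). Its CPM was 3.90 ± 0.908% of that of Rps27 in WT, and 2.72 and 4.04% in CNS2KO, both inside the WT range. In CPM, CNS2KO 399 lay inside the WT range of Rps27l and CNS2KO 408 just above it. Rpl36al (0.36, SE 0.22) and Rpl7l1 (0.13, SE 0.21) had the opposite arrangement, CNS2KO 399 above the WT values and CNS2KO 408 within them. Rpl39, a very short protein of the peptide tunnel, stood at 165, 150.4, 128, 102 and 190 CPM in WT and at 140 and 210 CPM in CNS2KO (0.25, SE 0.25). It was the only core gene that was below its WT mean in CNS2KO 399.

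The 2 CNS2KO libraries did not share an order of the genes. Across the 77 core genes, their values against the WT mean were related with r = 0.07 (Pearson) and rho = 0.01 (Spearman). This is across genes, which share the libraries and are not independent replicates. CNS2KO 399 lay above every WT library in 62 of the 77 and below in 0, against 25.5% and 18.8% of the 2168 genes at 100 CPM or more. CNS2KO 408 lay above in 15 and below in 9, against 22.2% and 14.4%. Among the 9, named after their values were seen, were Rplp0, Rplp2, Rpl3, Rpl7a, Rpl8, Rpl14, Rps13 and Rps15. CNS2KO 408 was the higher of the pair for 8 core genes, Rpl23a, Rpl35a, Rpl36a, Rpl37, Rpl38, Rpl39, Rps25 and Rps29, of which the longest coding sequence was 468 nt (Rpl23a).

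**Figure D3:**
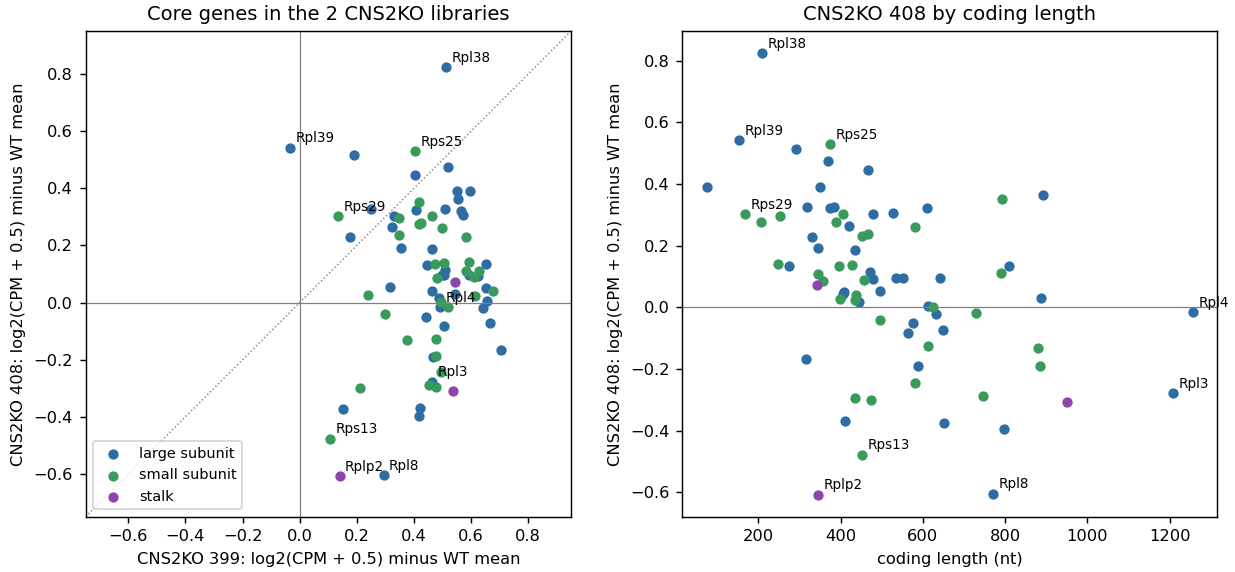
Left, log2(CPM + 0.5) minus the WT mean of each of 77 core genes in CNS2KO 399 (x) and CNS2KO 408 (y), with a dotted line of equal values; right, the CNS2KO 408 values against coding length in nt. Nearly all points lie right of 0 in CNS2KO 399, while CNS2KO 408 values spread from -0.61 to 0.82 and are higher among genes of short coding length.

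In CNS2KO 408 the short genes stood higher. Its values against the WT mean had a Spearman's rho of -0.50 with coding length and -0.37 with the GC content of the transcript over the 77 core genes. By quartile of coding length, the medians in CNS2KO 408 were 0.30 for the 21 genes of 75 to 375 nt and -0.02 for the 19 genes of 624 to 1257 nt. In CNS2KO 399 the same groups had medians of 0.48 and 0.49, and rho with coding length was 0.09. The 1879 other genes at 100 CPM or more with a known length (90.0% of them) showed another picture: rho with coding length was -0.44 in CNS2KO 399 and -0.06 in CNS2KO 408, and rho with GC content was 0.16 and -0.52. Length moved with the values of CNS2KO 399 in these other genes, and the 472 of them in the shortest quartile (132 to 867 nt) had a median of 0.14 there. Pairs of WT libraries also differed with length: for WT 1037 minus WT 1032 rho with coding length was -0.38 over the core genes and -0.55 over the other genes, and for WT 398 minus WT 402 it was -0.31 and 0.44. The part of transcript length, GC content and amplification in the level of the ribosomal protein genes was not tested.

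Other genes of translation were taken from lists, and 0 of their members passed the test. Ribosome components outside the Rpl and Rps symbols had positive log2 fold changes in 3 of 3 (median 0.23), with the scaffold protein gene Gnb2l1 at 0.13 and Fau, whose product is split into a ubiquitin-like protein and Rps30, at 0.23. Both stood highest in CNS2KO 399 (1665 and 607 CPM, against WT maxima of 1459 and 466). Initiation factors had 18 positive and 9 negative of 27 tested (median 0.04), with Eif4a2 at 0.22 and Eif4g2 at 0.01. Elongation factors had 4 positive and 2 negative (median 0.04), with Eef1a1, which brings aminoacyl transfer RNA to the ribosome, at -0.02 and Eef2, the translocase, at -0.15. Eef1a1 stood at 15493 CPM in CNS2KO 399, 9490 CPM in CNS2KO 408 and 12670.5 ± 999 CPM in WT (SD, n = 5), so the CNS2KO pair flanked the WT range as for Rplp0 and Rpl3.

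Other transcripts known to carry a TOP motif were positive in 4 of 5 (median 0.12; Tpt1 0.10, Naca 0.25). Genes of ribosome assembly were positive in 20 of 29 (median 0.08), with the nucleolar proteins Npm1 at 0.30 and Ncl at -0.05. RNA polymerase I genes were positive in 8 of 13 (median 0.07; Rrn3 0.06, Taf1b 0.39). Regulators of ribosomal protein synthesis were positive in 6 of 15 (median -0.09; Trp53 -0.09, Myc 0.03). For comparison, the median was 0.04 over genes at 100 CPM or more, of which 57% were positive. Over all tested genes it was -0.03, with 47.4% positive. List members stood on both sides of 100 CPM. The list members were not compared with each other by a test. CNS2KO 399 stood above every WT library in the list medians of ribosome components (0.59), elongation factors (0.27), ribosome assembly (0.27) and, only just, other TOP transcripts (0.21). CNS2KO 408 stood at -0.19, -0.34, 0.02 and 0.07 in these, with the elongation factors below every WT library.

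**Figure D4:**
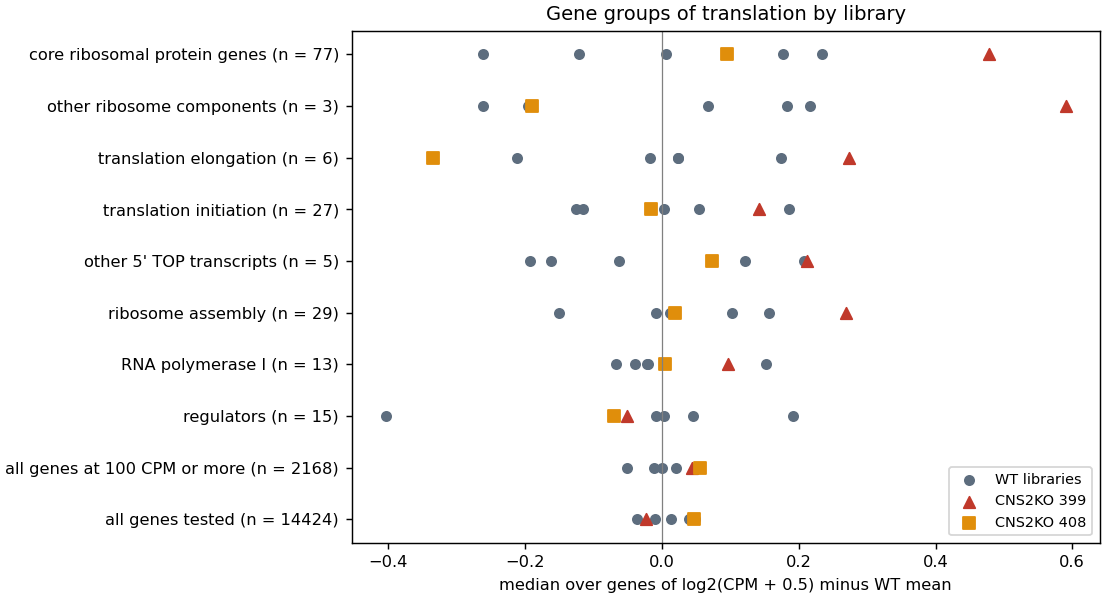
Median over the genes of each list of log2(CPM + 0.5) minus the WT mean, by library (grey circles WT, red triangle CNS2KO 399, orange square CNS2KO 408), with the number of genes tested. The core ribosomal protein genes and the other ribosome components have CNS2KO 399 at 0.48 and 0.59, beyond the WT points, while the medians of all genes stay near 0.

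The cells carried the markers of regulatory T cells. Of 8 such markers (Foxp3, Il2ra, Cd4, Cd3e, Cd3g, Ctla4, Ikzf2 and Tnfrsf18) 8 of 8 were read in every library, with a summed level of 6021 to 6725 CPM in WT and 6299 and 6468 CPM in CNS2KO. The summed level of erythroid markers, like the share of ribosomal protein reads, was highest in CNS2KO 399. Of 8 erythroid markers listed 7 were measured (Ahsp was not analysed here), and each had a read in some library. Slc4a1 was at 0 in all WT libraries and in CNS2KO 399. Hbb-b1, a beta globin gene, had the highest single level, 78.4 CPM in CNS2KO 399. The summed level of the erythroid markers was 6.84 to 27.6 CPM in WT and 156 and 31.4 CPM in the CNS2KO libraries 399 and 408. Within WT it was lowest in WT 1037 and highest in WT 405, whose ribosomal protein shares were 7.71% and 6.49%. The part of red blood cell RNA in the ribosomal protein level was not tested. B cell markers summed to 1192 to 1507 CPM in WT and to 1364 and 1105 CPM in CNS2KO, mostly from Ighm. Cd74, Cd79a and Cd79b among them were also highest in CNS2KO 399, at 207, 14.4 and 48.1 CPM against WT maxima of 161, 9.77 and 30.2 CPM, and the part of B cell RNA was likewise not tested. Myeloid markers summed to 65.5 to 93.3 CPM in WT and 87.6 and 102 CPM in CNS2KO, and CD8 and NK cell markers to 67.5 to 82.1 and 78.9 and 67.6 CPM.

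Another file holds a single signed number for every gene, without naming groups, direction or log base. Of the 83 tested ribosomal protein genes, 75 had a positive and 8 a negative value in the authors' deposited table (median 0.126; range -0.136 to 0.462), against 7388 positive and 6997 negative of 14424 tested genes. Rps27l had the highest and Rpl8 the lowest value of the 83 in the authors' deposited table, with Rplp2 at -0.095 and Rpl38 at 0.176. In the authors' deposited table, Rps25 had 0.015 and Rps13 0.244, whose fold changes in the counts were 0.46 and -0.17. The samples behind the authors' values are not named either, and may differ from the libraries compared here.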

How the data were processed

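RNA of 9 samples (6 WT, 3 CNS2KO) was amplified by a SMARTer method and sequenced as Ion Proton libraries, per the labels' protocols. STAR, BWA, edgeR and the build mm9 are named, with no roles, in the submitters' processing notes. The read counter and the annotation are not given in the sources used here, nor is the use of strand. What the authors deposited are unnormalized counts of reads for each gene, log2 values of unstated scaling, and a signed score for each gene. Of the columns, 4 in all, those numbered 407, belong to no single sample by the labels and were not used. The 5 summary rows of the read counter stayed out of library sizes and tests.

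Counts were tested in R 4.3.3 with edgeR 4.0.16: filterByExpr, TMM scaling, two-sided quasi-likelihood test of 5 WT against 2 CNS2KO libraries, Benjamini-Hochberg adjustment over all 14424 genes at an FDR of 0.05. SE is the size of the log2 fold change divided by the square root of F. CPM values are TMM-scaled, and 3 reads correspond to 0.142 to 0.182 CPM. Alternatives used DESeq2 1.42.0 and limma 3.58.1. The script was tested on simulated data. Coding lengths are those of the principal transcript in GENCODE M21 (GRCm38), matched by symbol; no protein table was used. Promoter sequences are from RefSeq (GRCm38.p6), and coordinates are in that build, not in mm9.

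Members and lists were chosen with earlier results of these data known. The rule for named genes took the stalk genes and Rpsa; the 6 largest and 6 smallest fold changes among members of 20 CPM or more; the 4 highest and 4 lowest members per coding kilobase; a fixed set of paralogues, partners and Mdm2-binding proteins; and the 2 highest genes of each pathway list. Some genes that the rule or a count takes in are not reported here by name.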

Additional observations from a re-analysis of the deposited data

Results flagged for a closer look

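The 5 WT values were examined in 57 sets of values, and in 2 of them a single library stood far from the rest; chance alone does this in about 1 in 20. Rpl10l stood at 0.182 CPM in WT 402 (3 reads) and at 0 in the other WT libraries. The summed B cell markers stood at 1507 CPM in WT 1037, against 1255 CPM in the next library.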

How the results depend on the processing

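No paired analysis was possible because WT and CNS2KO share only the number 407, whose columns were not used. The count of ribosomal protein genes called stayed at 0 in 10 alternatives and with each of 7 libraries left out. The number with a positive log2 fold change was 76 to 77 in the 10, and 55 to 80 with a library left out. The median stayed between 0.29 and 0.30 in the 10 and ran from 0.092 to 0.45 with a library left out, and the difference in share of gene reads from -0.11 to 2.18 percentage points. At an unadjusted p under 0.05 the reported fit had 11 of 83 ribosomal protein genes and 361 of 14424 genes in all. With no filter on low counts there were 19 of 85 and 985 of 21963. A filter at 10 CPM left 8 of 81 and 267 of 8573. Upper-quartile scaling gave 6 of 83 and 354 of 14424. Limma on the deposited log2 values gave 1 of 83 and 402 of 14424. With the 3-digit WT libraries alone there were 6 of 83 and 271 of 13999. A term for WT 1032 and WT 1037 gave 2 of 83 and 235 of 14424. DESeq2 gave 15 of 83 and 496 of 14424, and limma-voom 16 of 83 and 614 of 14424. Without a filter on low counts 8 other genes passed the threshold, against 0 in the reported fit. Of 41 named genes 18 kept their sign throughout, and 0 passed the threshold in any alternative. Log2 fold changes turned sign with the 3-digit WT libraries alone, and with a term for WT 1032 and WT 1037, to -0.040 and -0.041 for Rpl28, 0.013 in both for Eef1a1, 0.016 in both for Ncl and -0.029 in both for Myc. Rpl39l was at 0.15 with limma on the deposited log2 values. With a library left out, the stalk, small subunit and Rpsa ranges that crossed 0 were Rplp0 -0.31 to 0.52, Rplp2 -0.62 to 0.12, Rpsa -0.19 to 0.46, Rps13 -0.49 to 0.090, Rps3 -0.030 to 0.50, Rps6 -0.31 to 0.42 and Rps27l -0.19 to 0.33. For the large subunit they were Rpl8 -0.61 to 0.27, Rpl14 -0.38 to 0.14, Rpl28 -0.41 to 0.37, Rpl39l -5.97 to 0.35, Rpl7l1 -0.16 to 0.37, Rpl3 -0.28 to 0.45 and Rpl39 -0.072 to 0.52. For other genes they were Gnb2l1 -0.20 to 0.39, Fau -0.21 to 0.57, Eef1a1 -0.41 to 0.28, Eef2 -0.46 to 0.094, Eif4g2 -0.19 to 0.19, Ncl -0.12 to 0.043, Rrn3 -0.021 to 0.14, Trp53 -0.41 to 0.16 and Myc -0.037 to 0.084. The cause was not tested. Leaving out a CNS2KO library gave most of these extremes, and Rpl39l rests on 20 reads or fewer per library.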
